A study of Saccharomyces cerevisiae with 12 samples.

Results

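The genome of wild-type budding yeast was profiled 40 min after release from a G1 arrest, as the ratio of its DNA to that of the arrested cells. The profile was taken from the 2 ratio columns of wild type at 40 min over 0 min, 1 per replicate, on nuclear chromosomes I to XVI. Rows with a ratio of exactly 0 in any of the 8 ratio columns of the series were left out, which kept 11630 of 12165 rows of 1000 bp. Each column was centred on its nuclear median, so a value states how far a region stood from the middle of the genome and not how much DNA a cell held. The rule used no level of the ratios apart from the exact zeros.

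The study set the control strain W303a, genotype wild type, against strain JG2087, which carries the eco1-W216G mutation in an acetyltransferase of sister chromatid cohesion. Both strains were grown exponentially in YPD and arrested in G1 by α-factor, the pheromone of the opposite mating type. They were released by washing with protease, and genomic DNA was taken at 0, 20 and 40 min, with 2 libraries per strain and time and 12 in all. DNA was made into Nextera XT libraries, in which a transposase cuts the DNA and adds adapters. Whether the replicates came from separate cultures is not stated, so every p-value here reflects only the scatter among these libraries, which may be technical.

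In S phase, replication starts at origins that fire at different times, and forks run from them until they meet. DNA copied early is therefore present in more copies than DNA copied late while the cell population is still in S phase, and the contrast disappears once every cell has copied the whole genome. In budding yeast, centromeres are known as early regions, while the outermost DNA of the chromosomes and the silent mating loci are known as late ones. The ribosomal DNA on chromosome XII holds a fork barrier in each repeat.

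Mapped reads came to 7731918 and 5876532 in the 40-min libraries of replicates 1 and 2 and to 8296955 and 6715371 in their 0-min libraries. At a median row, counting error alone gave an SD of 0.076 and 0.087 (log2) in the ratio of replicates 1 and 2, and of 0.024 and 0.027 over a window of 10 rows. These figures cover counting error only, since reads amplified by PCR are not independent molecules. The 2 replicates differed in how strongly the ratio moved with row coverage. The ratio moved with how well a row was covered, measured by reads in the eco1 0-min libraries, which take no part in the wild-type ratios. In the 10% of rows with the fewest reads the 40-min mean was 0.078 in replicate 1 and 0.18 in replicate 2. In the 10% with the most reads it was −0.042 and −0.10. The slope was thus the same way in both and steeper in replicate 2, and it was shallower in both replicates at 20 min. What the slope comes from was not tested. Values were also computed after subtracting a smooth curve of the ratio over row depth, among 11334 rows with at least 200 reads on average. The subtraction also removes any regional difference that goes with row depth. Values are as deposited and centred unless they are called corrected, which means after that subtraction. The correction was chosen after the data had been seen.

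**Figure D1:**
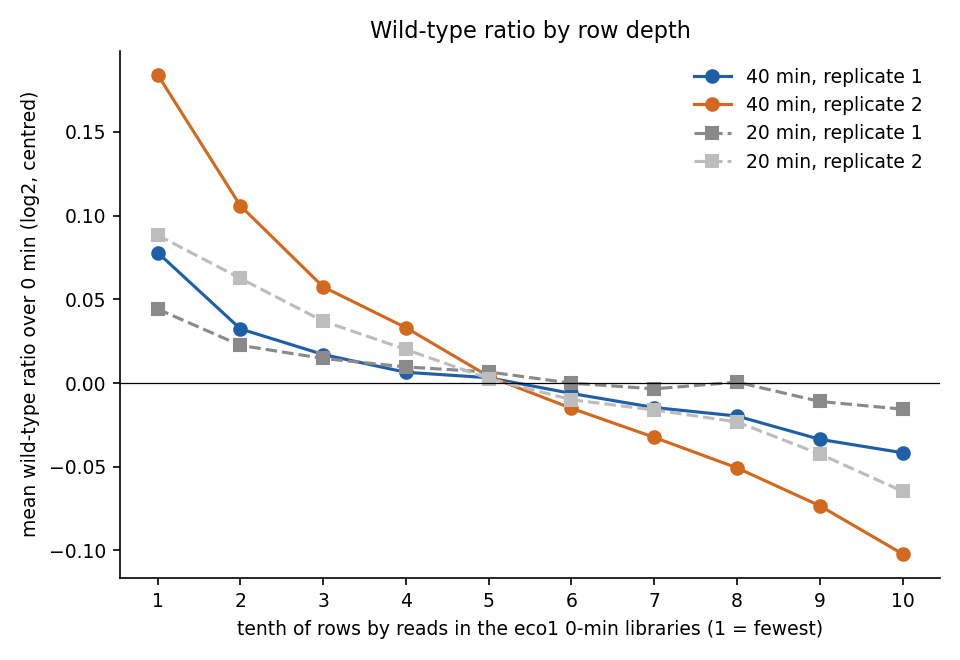
Mean wild-type ratio over 0 min (log2, centred) in 10 equal groups of 11334 rows ranked by reads in the eco1 0-min libraries, from fewest to most, for each replicate at 40 and 20 min. Both 40-min columns fall from left to right, from 0.078 to −0.042 in replicate 1 and from 0.18 to −0.10 in replicate 2.

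What was left at 40 min was a shallow profile of broad regions. Over 1213 windows of 10 kb the SD was 0.062 in replicate 1 and 0.088 in replicate 2, against 0.072 and 0.086 at 20 min. Averaged over 50 kb, the SD at 40 min was 0.040 and 0.052, while that at 20 min was 0.029 and 0.037. More of the 20-min contrast was therefore lost in averaging, and more of the 40-min contrast lay in regions of that size. The correlation of the replicates over 248 segments of 50 kb was r = 0.76 at 40 min and r = 0.44 at 20 min, and the corrected values gave 0.77 and 0.44. At 10 kb it was 0.43 at 40 min (Spearman's rho 0.57) and 0.44 at 20 min. These correlations are descriptions across segments of the same libraries, whose rows also share their coverage. Both replicates had the same sign in 873 of the 1213 windows at 40 min.

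Whole chromosomes stood apart at 40 min. Chromosomes I, III, V, VI, IX, XI and XVI rose against the genome median and chromosome XII fell, by limma on the 16 chromosome means with Benjamini-Hochberg adjustment. Those counts were 43.8% and 6.25% of the chromosomes tested. The changes were small, from 0.019 to 0.042 upward and 0.025 downward on the log2 scale, which is 1.01- to 1.03-fold for the higher chromosomes and 0.983-fold for chromosome XII. Chromosome VI had means of 0.037 and 0.047 in replicates 1 and 2, or 0.042 ± 0.007 (SD, n = 2), with a limma adjusted p of 0.00025. Chromosome III had 0.029 and 0.052, chromosome I had 0.035 and 0.041, and chromosome V had 0.033 and 0.039, each with the same limma adjusted p of 0.00025. Chromosome IX had 0.027 and 0.030, with a limma adjusted p of 0.00077. All 5 chromosomes were above 0 in both replicates, and in each replicate all 5 lay above chromosomes IV, VII, XII and XV, the 4 longest. Chromosome XII had −0.032 and −0.018, with a limma adjusted p of 0.0046, and chromosome IV, the longest, had −0.023 and −0.012, with a limma adjusted p of 0.054. In replicate 1, 37.5% of the rows of chromosome XII lay above the genome median, and in replicate 2, 42.4%. On chromosome VI these shares were 64.2% and 58.1%.

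The correction for row depth left chromosomes I, III, V, VI and IX higher, with values of 0.026 to 0.042, and chromosome XII lower, at −0.034 and −0.035 in the 2 replicates. It added chromosome X to the higher chromosomes, and chromosomes IV and XIV to the lower ones, at −0.029 and −0.014. That made 43.8% of the chromosomes higher and 18.8% lower, or 62.5% in either direction. Chromosome XI, at 0.006 after correction, no longer passed. The limma adjusted p of the corrected values was 7.8e-08 for chromosome XII, 9.9e-07 for chromosome IV and 0.0032 for chromosome XIV. As deposited, chromosome XII missed the threshold without wild-type 40-min replicate 1 (limma adjusted p = 0.18), and chromosomes XI and XVI missed it without 40-min replicate 2 (0.38 for each) or without either 20-min replicate (0.053 and 0.061). Chromosome XVI also missed it without centring (0.052). Chromosomes I, III, V, VI and IX passed under all 20 settings that were run. Settings that leave out a column of another group change only the shared spread and not the chromosome means.

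The order of the chromosomes followed their length. Across the 16 chromosomes, length and the 40-min mean had r = −0.85 (rho −0.88) in replicate 1 and r = −0.79 (rho −0.75) in replicate 2. Without the shortest and the longest chromosome r was −0.80 and −0.72. Leaving out the outermost 30 kb gave −0.84 and −0.66, and −0.87 and −0.82 after correction. The points share their libraries, and no p is given for them. At 20 min r was −0.74 and −0.76, in columns that use the same 0-min libraries.

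The arms showed the relation more closely. Over 32 arms, arm length and the 40-min mean had r = −0.88 and −0.83 in replicates 1 and 2, and −0.92 and −0.84 after correction, again as a description of points that share their libraries. All 13 arms under 250 kb were above 0 in both replicates, with means from 0.015 to 0.062 in replicate 1 and from 0.015 to 0.089 in replicate 2. Of 8 arms over 500 kb, 4 were below 0 in both replicates and 2 above it in both. After correction 12 of the 13 short arms were above 0 in both replicates and 7 of the 8 long arms were below. Arms of the same chromosome differed accordingly. On chromosome XII the left arm of 151 kb had 0.023 and 0.065, and the right arm of 927 kb had −0.041 and −0.031. On chromosome XV the left arm of 326 kb had 0.025 and 0.038, and the right arm of 765 kb had −0.012 and 0.007. On chromosome XIV, where the left arm is the long one, it had −0.020 and −0.014, and the right arm had 0.021 and 0.015, or 0.021 and −0.003 corrected.

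**Figure D2:**
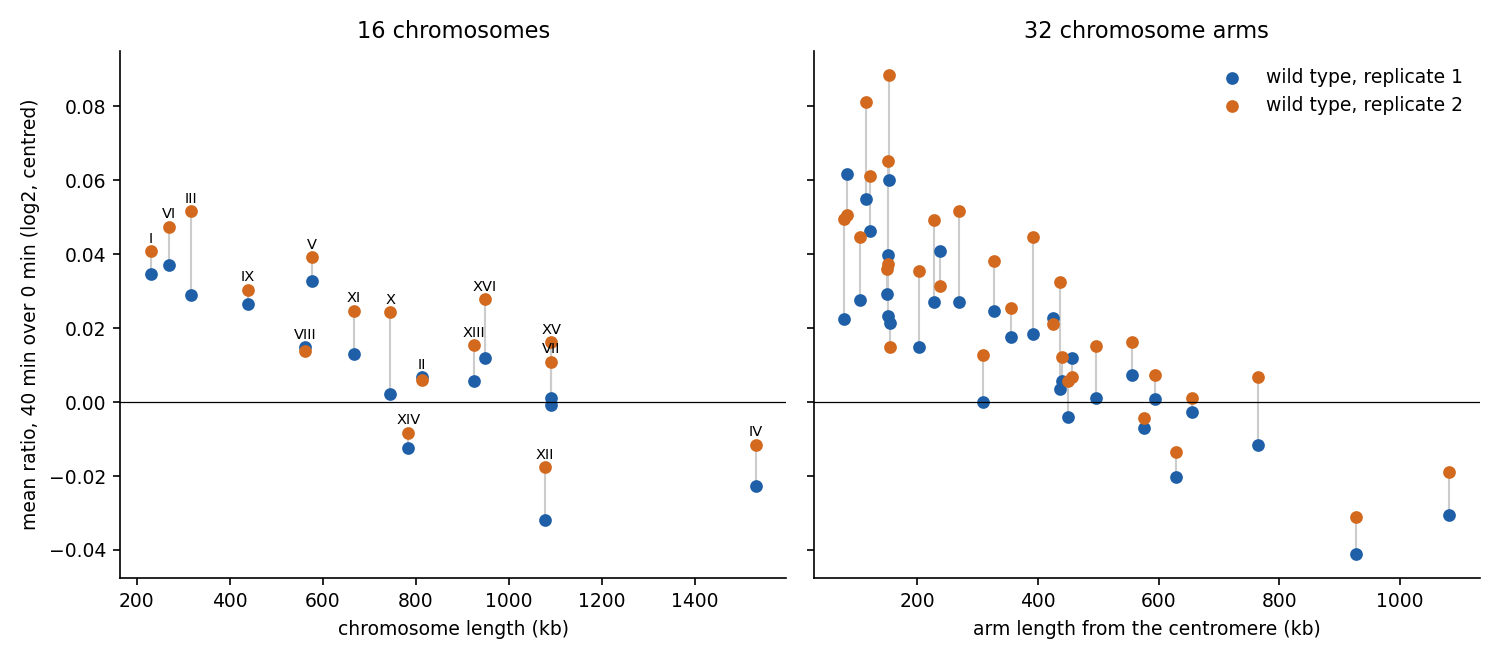
Mean centred ratio of wild type at 40 min over 0 min (log2) by chromosome length (left) and by arm length from the centromere (right), in kb, with a point per replicate and a grey line joining the replicates of a chromosome or arm. All 13 arms under 250 kb lie above 0 in both replicates, and the right arms of chromosomes XII and IV lie lowest.

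In the interior of the chromosomes the mean fell with distance from the centromere. Among rows at least 50 kb from an end, those within 50 kb of a centromere had means of 0.048 and 0.066 in replicates 1 and 2. From 50 to 100 kb the means were 0.026 and 0.032, and from 100 to 200 kb they were 0.005 and 0.019. From 300 to 500 kb they were −0.032 and −0.027, and beyond 500 kb, on 8 chromosomes, they were −0.043 and −0.038. The values dropped at every step in both replicates. The corrected means went from 0.042 and 0.046 within 50 kb to −0.045 and −0.048 beyond 500 kb, also dropping at every step. At 20 min the same bins ran from 0.033 and 0.034 to −0.013 and −0.015, over the same 0-min libraries. These bins are described and were not tested. Those from 200 to 500 kb hold 13 of the 16 chromosomes, so distance is mixed with chromosome and arm length. Rows over 100 kb from the centromere, ends included, had 0.013 and 0.020 at 40 min on chromosomes under 600 kb. On chromosomes over 600 kb they had −0.016 and −0.005.

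**Figure D3:**
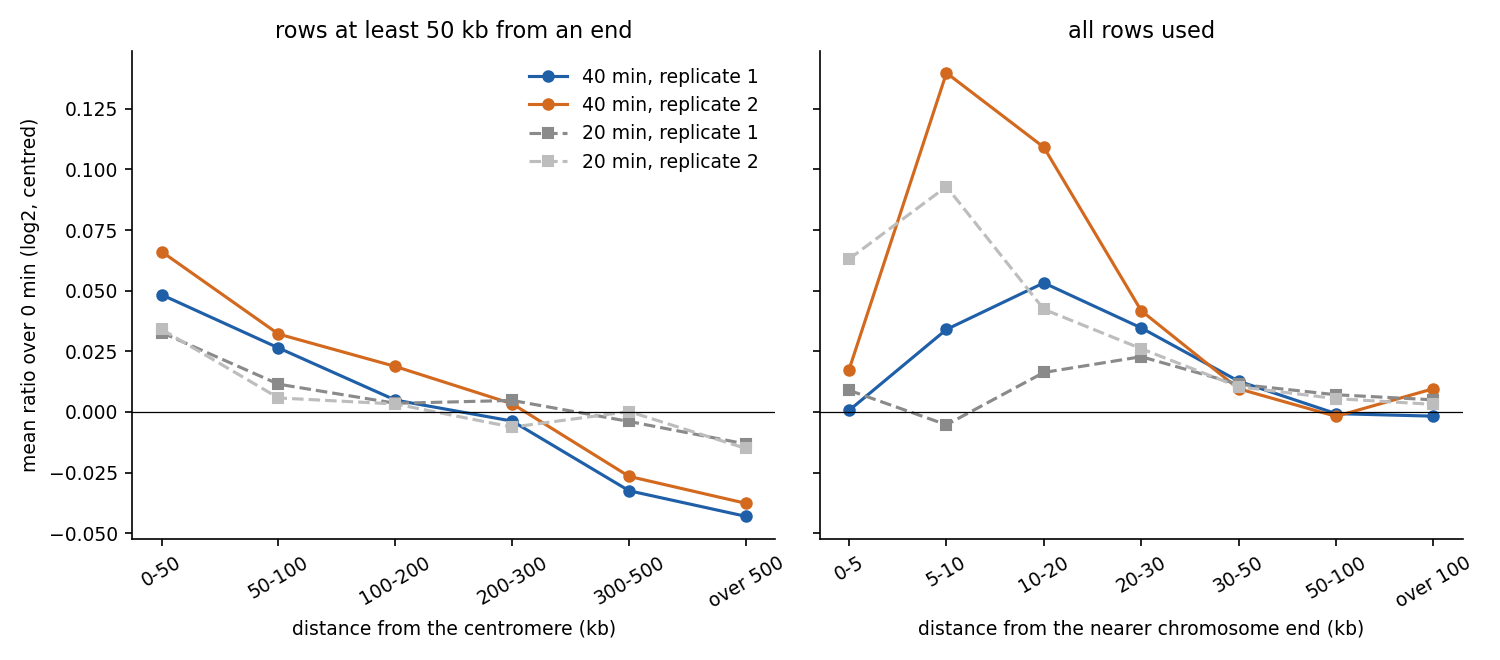
Mean wild-type ratio over 0 min (log2, centred) by distance from the centromere among rows at least 50 kb from an end (left) and by distance from the nearer chromosome end (right), in kb, for each replicate at 40 min (solid) and 20 min (dashed). Both 40-min lines fall from 0.048 and 0.066 near the centromere to −0.043 and −0.038 beyond 500 kb.

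Among rows grouped by distance from the centromere, where the kinetochore forms, the ratio was highest in those closest to it. Rows within 5 kb had 0.082 and 0.094, and rows within 2.5 kb of the centromere interval, 117 in all, had 0.087 and 0.11 against 0.002 and 0.013 over all rows. Of the 16 centromeres, 15 were above 0 in both replicates. After correction the 117 rows had 0.066 and 0.052, and 10 of the 16 centromeres were above 0 in both. The value thus moved with row depth, more so in replicate 2. The centromere of chromosome III had the highest mean of the replicates, with 0.14 and 0.29, and 0.12 and 0.24 after correction. In replicate 1 those of chromosomes XII, XIV and XI were slightly higher, at 0.15, 0.15 and 0.14. That of chromosome XIV had 0.15 and 0.18, and that of chromosome X, among the lowest, had 0.014 and 0.018. The centromere of chromosome XI had 0.14 in replicate 1 and −0.012 in replicate 2. At 20 min the 117 rows had 0.043 and 0.037, with the same 0-min libraries. None of the 26 windows that hold these rows passed the limma threshold as deposited, and 15 had an unadjusted p under 0.05. The share of all windows called as deposited was 0.0%, with 278 of 1213 at an unadjusted p under 0.05. After correction 1 of the 26 was called, or 3.85%, against 3.95% of all windows.

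The long right arms of chromosomes XII and IV held 15 of the 20 lowest segments. Of 235 segments of 50 kb with at least 25 rows, the 20 lowest by corrected mean included 9 of the 20 on chromosome XII, 6 of the 30 on chromosome IV, all 15 on the right arms, and none of the 46 on chromosomes under 600 kb. The 20 highest included 12 of those 46, 1 on chromosome XII and none on chromosome IV. All 40 had the same sign in both replicates, with corrected means from −0.090 to −0.056 and from 0.051 to 0.097. The segments were ranked by these same values, so the counts are a description.

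On chromosome XII the mean level was lower past the ribosomal DNA than between it and the centromere. Between the centromere and the ribosomal DNA, over 300.2 kb, the means were −0.012 and −0.009 in replicates 1 and 2. In the 200 kb past it they were −0.079 and −0.043, with 78.9% and 63.2% of rows below the genome median. From there to 30 kb before the right end they were −0.048 and −0.050. The corrected means of these 3 regions were −0.012 and −0.012, −0.081 and −0.063, and −0.052 and −0.070. At 20 min all 3 regions lay between −0.012 and 0.016 in both replicates. Low values at 40 min were also present before the ribosomal DNA. The windows of PUT1 and YLR152C, from 420001 and from 440001, had −0.13 and −0.16, and −0.094 and −0.13. Where the fall began was not tested, and the regions also differ in distance from the centromere. The 2 rows onto which reads of the repeats map gave no common sign after centring, with −0.028 and −0.14 in replicate 1 and 0.15 and 0.074 in replicate 2. They rest on 24746 and 65430 reads in the 40-min library of replicate 1.

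**Figure D4:**
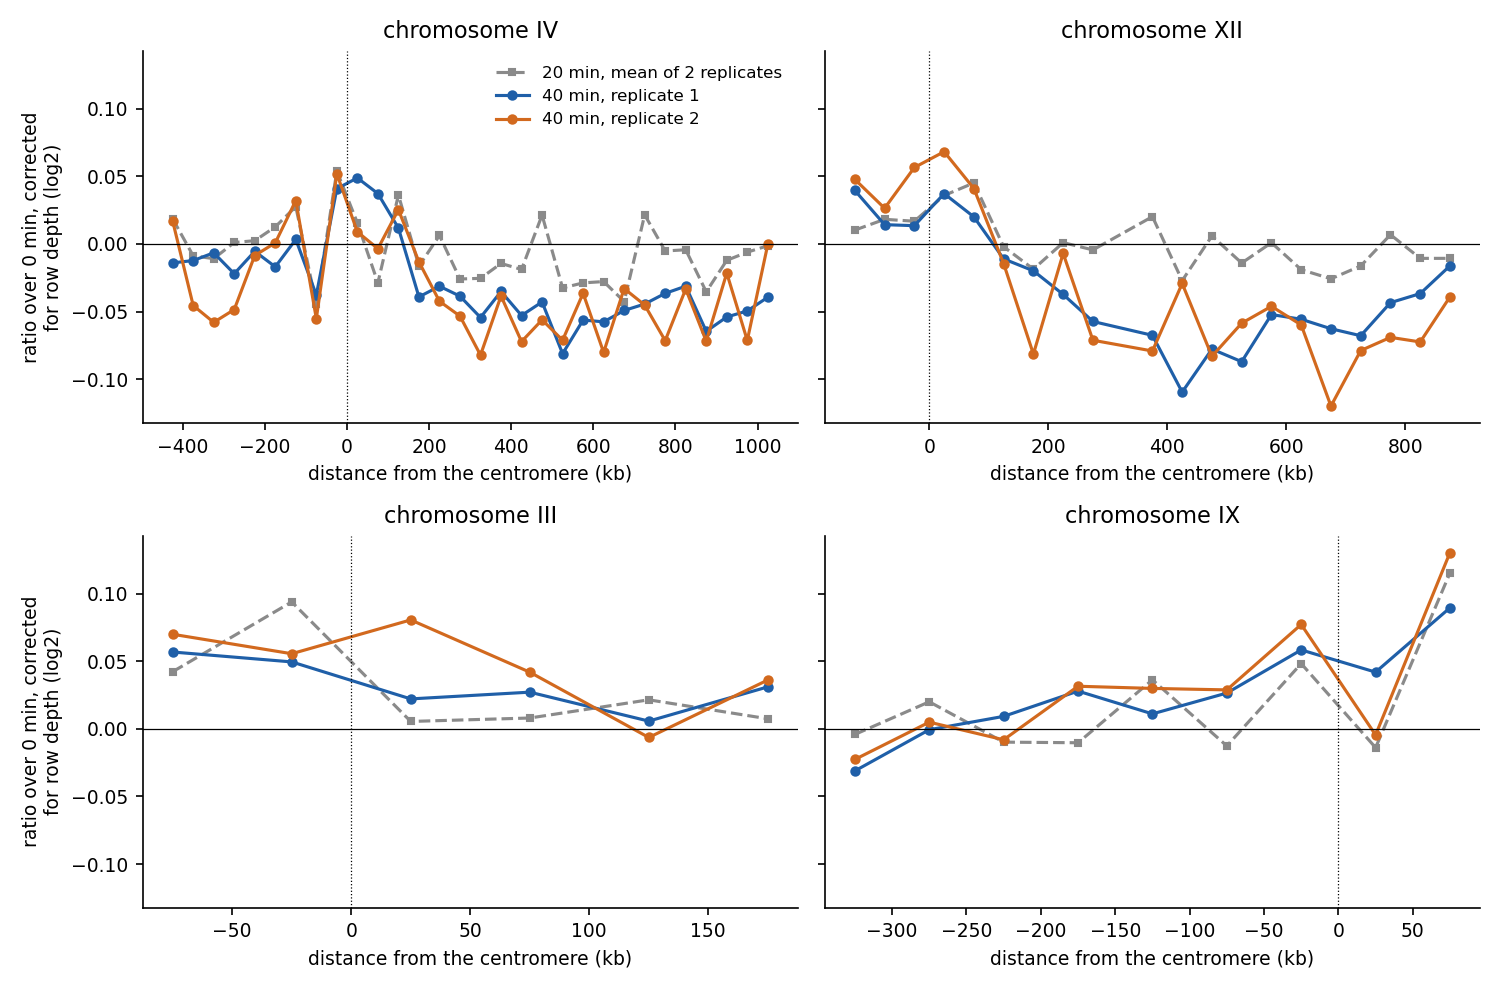
Wild-type ratio over 0 min, corrected for row depth (log2), in bins of 50 kb by distance from the centromere (kb) on chromosomes IV, XII, III and IX, with each replicate at 40 min and the mean of the replicates at 20 min. Bins with under 25 rows are left out, among them that of the ribosomal DNA. On the right arms of chromosomes XII and IV both 40-min lines stay at or below 0 from 150 kb on.

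Chromosome ends did not lie below the genome median on average. The outermost 30 kb had 0.037 and 0.076 in replicates 1 and 2, over 777 rows, and the corrected values were 0.041 and 0.050, over 616 rows. By distance, the means were 0.001 and 0.017 in the outermost 5 kb, 0.034 and 0.14 from 5 to 10 kb, 0.053 and 0.11 from 10 to 20 kb and 0.035 and 0.042 from 20 to 30 kb. From 50 to 100 kb they were −0.001 and −0.002. The outermost 5 kb is thinly covered, with a median of 101 reads per row. The corrected values were 0.057 and −0.009 in the outermost 5 kb and 0.028 and 0.063 from 5 to 10 kb. From 10 to 20 kb they were 0.050 and 0.067, and those from 20 to 30 kb were 0.037 and 0.041. On chromosomes under 600 kb the 10-to-20-kb bin had 0.075 and 0.15, and on the longer ones 0.041 and 0.088. At 20 min the outermost 30 kb had 0.015 and 0.046. After correction limma called 8 of the 88 windows that hold these rows, all higher. That was 9.09%, against 3.95% of all windows.

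The silent mating loci HML and HMR, copies of mating-type information kept silent near the ends of chromosome III, had the highest mean of the lists, with 0.16 and 0.42 over 14 rows. Corrected values were 0.10 and 0.27 over 10 rows, and at 20 min the 14 rows had −0.013 and 0.13. The replicates differed here by more than the lower value itself, and none of the 3 windows passed the threshold.

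By 10-kb windows, limma called none of 1213 as deposited, 0.0% in each direction. The spread in that fit is shared by all 8 columns, and the eco1 40-min columns moved oppositely with row depth, from 0.10 to −0.021 in replicate 1 and from −0.19 to 0.18 in replicate 2 between the 10% of rows with the fewest and the most reads. After correction limma called 19 windows higher and 28 lower of 1191, which is 1.6% and 2.35%, or 3.95% in either direction, with adjusted p from 0.030 to 0.048. Of the 19 higher windows, 13 were on chromosomes under 600 kb, which hold 234 of the 1191, and 9 lay within 50 kb of an end, as do 152 of the 1191. Of the 28 lower ones, 20 were on chromosomes IV, XII and XIV, which hold 335, and none lay within 50 kb of an end. These chromosomes were also the ones called lower from the same corrected columns, so that count is a description. As deposited, 19 of the higher and 26 of the lower windows had the same sign in both replicates. These calls rest on the libraries in the fit. Leaving out a column of a group other than wild type at 40 min changes only the shared spread and no window value. Leaving out either replicate of such a group gives the same fit, so calls kept there are not separate support. Without eco1 20-min replicate 1 or 2 none passed, without wild-type 40-min replicate 2 none passed and without replicate 1 there were 2 higher and 1 lower. Without either eco1 40-min replicate there were 35 higher and 41 lower, and without either wild-type 20-min replicate 30 and 33, with all 47 among them in each case.

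Among the windows called higher after correction, that at the centromere of chromosome III (gene YCR001W, 110001 to 120000 in the sacCer3 build) had corrected values of 0.10 and 0.21 in replicates 1 and 2. Its mean was 0.16 with a limma SE of 0.032 and an adjusted p of 0.032, and as deposited it had 0.12 and 0.26. The window of CDC15, a kinase of the mitotic exit network, on chromosome I from 170001 to 180000, had 0.12 and 0.15 corrected (limma adjusted p = 0.030). Its corrected values at 20 min were 0.22 in each replicate. The window of BDH1, a butanediol dehydrogenase, at 30001 to 40000 of the same chromosome, had 0.10 and 0.13. DAL3, an enzyme of allantoin breakdown near the right end of chromosome IX, had 0.11 and 0.19 at 40 min and 0.34 and 0.25 at 20 min, all corrected. That window was above the genome median at both times and fell between them, by 0.14 (limma adjusted p = 0.036). As deposited the 40-min values were lower, at 0.097 and 0.091 for CDC15, 0.077 and 0.067 for BDH1 and 0.093 and 0.16 for DAL3. The correction of wild-type columns uses reads of the eco1 0-min libraries, and eco1 ratios at 40 min exceeded those of wild type on parts of chromosomes I and IX. Whether that moved these corrected values was not tested.

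Other windows had been lower by value at 20 min. That of DBP5, an RNA helicase of mRNA export on chromosome XV, had corrected values of 0.071 and 0.14 at 40 min and −0.024 and −0.035 at 20 min. That of PRD1, a metalloprotease on chromosome III, had 0.065 and 0.14 at 40 min and −0.037 and 0.037 at 20 min. Those of RMD6 on chromosome V and ECM34 on chromosome VIII, both from 10001 to 20000, had 0.059 and 0.15, and 0.069 and 0.15. At 20 min RMD6 had 0.004 and 0.011, and ECM34 had 0.007 and 0.040. In the limma test of the corrected 40-min minus 20-min difference, DBP5 (0.13, adjusted p = 0.018) and PRD1 (0.10, adjusted p = 0.036) passed, and RMD6 (adjusted p = 0.057) and ECM34 (adjusted p = 0.086) did not.

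The window with the largest corrected mean was that of YML045W-A on chromosome XIII, at 0.15 and 0.23, and it rests on 4 rows. The whole window has 5 rows, 2 of them next to genes of Ty retrotransposons. As deposited, the highest windows were of this kind. That of YHR214C-B on chromosome VIII had 0.40 and 0.41, on 4 rows with a median of 14.5 reads, and that of YGR038C-B on chromosome VII had 0.15 and 0.58, on 4 rows. Of the 10 windows that the naming rule gave as deposited, 8 had rows next to Ty genes. In the eco1 40-min columns YGR038C-B had 0.29 and −0.21. No such window passed the threshold as deposited.

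Among the lower windows, that of PUT1, the mitochondrial proline oxidase, lies on chromosome XII from 420001 to 430000, before the ribosomal DNA. It had −0.13 and −0.16 in replicates 1 and 2, both as deposited and corrected (limma adjusted p = 0.030 corrected, 0.13 as deposited). Past the ribosomal DNA, ENT2, an epsin of endocytosis, had −0.14 and −0.10 corrected, and NDL1, a regulator of dynein, had −0.091 and −0.18. On chromosome IV the window of TFB1, a subunit of the transcription factor TFIIH, had −0.087 and −0.21, that of CTH1, an mRNA-binding protein, had −0.14 and −0.097, and that of TRS23, a subunit of the TRAPP complexes, had −0.12 and −0.11. GND2, a dehydrogenase of the pentose phosphate pathway near the right end of chromosome VII, had −0.13 and −0.17. The remaining 3 named windows were those of ICS3 on chromosome X, SAS5, of the SAS histone acetyltransferase complex on chromosome XV, and YDR210W-B, a Ty gene on chromosome IV. ICS3 and SAS5 had corrected means of −0.12 and −0.11. YDR210W-B had 0.004 as deposited, on 5 rows, and −0.14 corrected, on the 2 of them with at least 200 reads. Without the correction its value in those 2 rows was −0.031. The lowest called window, that of YLR159W past the ribosomal DNA, had a corrected value of −0.45 that rests on 1 row. As deposited it had −0.35 and 0.38 in replicates 1 and 2, on 2 rows. It was singled out after its values were seen.

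**Figure D5:**
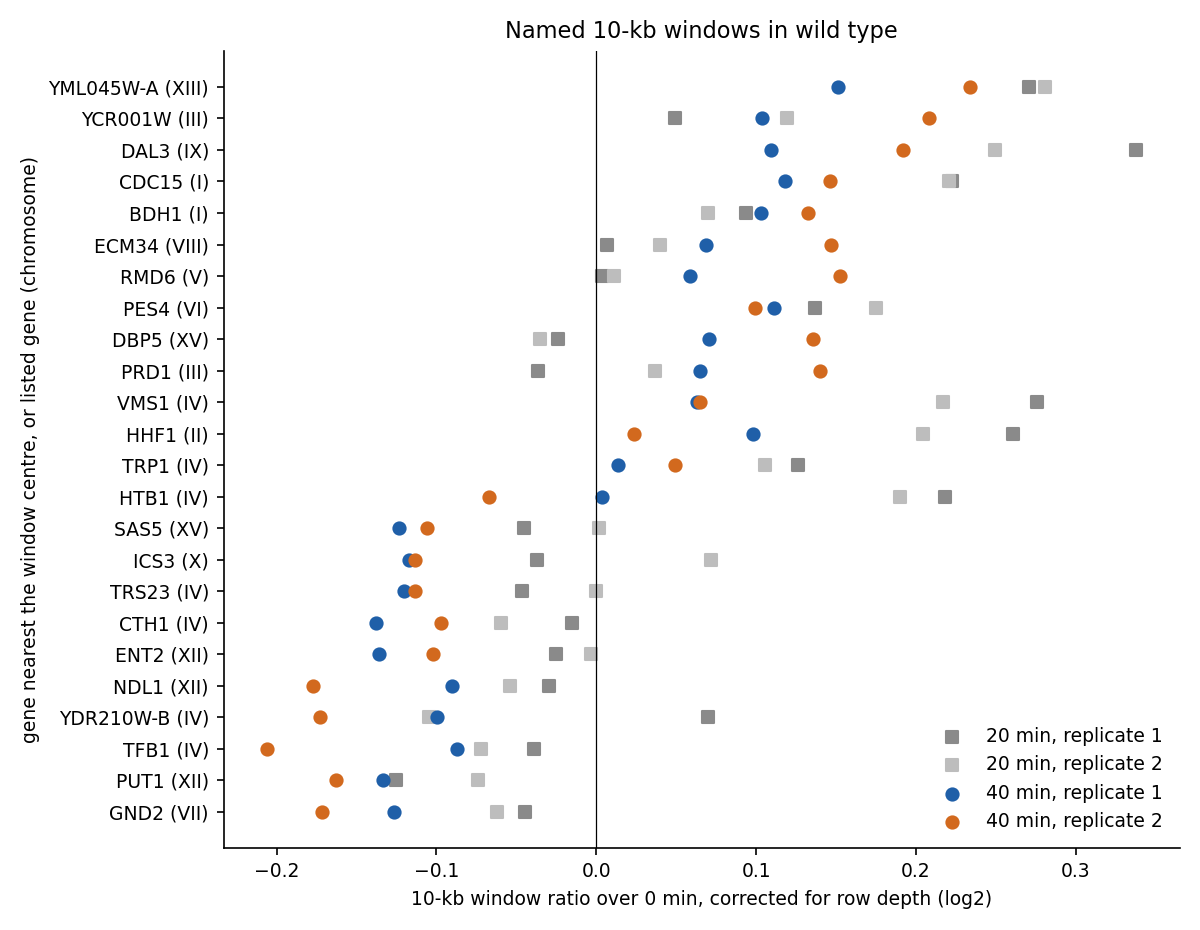
Corrected ratio over 0 min (log2) of named 10-kb windows in wild type, with a point for each replicate at 40 min (circles) and 20 min (squares). Rows are windows ordered by the 40-min mean, labelled by gene and chromosome. The windows from SAS5 down to GND2 lie at or below −0.087 in both 40-min replicates, and HTB1, TRP1, HHF1 and VMS1 lie below their 20-min values.

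The windows of 5 genes chosen for the comparison of the 2 times were all above the genome median at 20 min. At 40 min 4 of them lay lower in both replicates by more than the replicates differed. The genes were chosen with earlier results of these data known. Their values and calls are therefore a description and not independent support for a fall. HTB1, which encodes histone H2B, had 0.23 and 0.22 at 20 min and 0.028 and −0.002 at 40 min. VMS1, a factor of ribosome quality control, had 0.28 and 0.23 and then 0.073 and 0.093. HHF1, which encodes histone H4, had 0.27 and 0.24 and then 0.12 and 0.093. TRP1, an enzyme of tryptophan synthesis beside the origin ARS1, had 0.12 and 0.078 and then −0.006 and 0.005. PES4, a suppressor of DNA polymerase epsilon mutations on chromosome VI, had 0.14 and 0.19 and then 0.12 and 0.13. As deposited, limma on the paired 40-min minus 20-min differences called none of 1213 windows (0.0%), with 168 at an unadjusted p under 0.05. After correction it called 42 higher and 69 lower of 1191 (3.53% and 5.79%, or 9.32% in either direction). HTB1 (−0.24), VMS1 (−0.18) and HHF1 (−0.17) were among the lower ones, and PES4 (−0.05, adjusted p = 0.28) and TRP1 (−0.08, adjusted p = 0.086) were not. Without wild-type replicate 1 those counts were 4 and 19, and without replicate 2 they were 0 and 17.

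SAM1, an S-adenosylmethionine synthetase on chromosome XII past the ribosomal DNA, went from above to below the genome median between these times. Its window had corrected values of 0.12 and 0.15 at 20 min and −0.10 and −0.12 at 40 min. Both 40-min values were below both 20-min values. The corrected difference of −0.25 was the largest fall among windows called both at 40 min and in the 40-min minus 20-min difference. The window of YLR159W, on 1 corrected row, had −0.34 but was not called in that difference (limma adjusted p = 0.062). SAM1 was singled out after its values were seen. Chromosome XII as a whole fell by 0.033 between 20 and 40 min after correction (limma adjusted p = 2.4e-05), chromosome IV fell by 0.024 (adjusted p = 0.0011) and chromosome XIV fell by 0.018 (adjusted p = 0.011). Chromosome V rose by 0.023 (adjusted p = 0.0015). As deposited none of the 16 passed, with an adjusted p of 0.098 for chromosomes V and XII, and without either wild-type replicate none passed after correction.

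Ranking across replicates, which share no library, showed how much of the 20-min order remained. The 10% of windows highest in 20-min replicate 1 had 0.14 in 20-min replicate 2 and 0.069 in 40-min replicate 2. The 10% highest in 20-min replicate 2 had 0.12 in 20-min replicate 1 and 0.031 in 40-min replicate 1. The lowest 10% had 0.014 and −0.003 at 40 min. After correction the highest 10% had 0.043 and 0.025 at 40 min and the lowest −0.010 and −0.008. The correlation over windows was r = 0.20 from 20-min replicate 1 to 40-min replicate 2 and r = 0.15 for the other crossing, against 0.44 between the 20-min replicates. These are descriptions over 1213 windows that share their coverage.

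Other gene lists stood closer to all rows once row depth was taken into account, though tRNA and histone genes stayed above them. All corrected rows had −0.0009 and −0.0008 in replicates 1 and 2. Rows within 2.5 kb of tRNA genes, 1423 in all, had 0.031 and 0.071 as deposited and 0.015 and 0.030 corrected. Those of ribosomal protein genes, 856 in all, had 0.022 and 0.042, and 0.006 and −0.0003 corrected. Those of the core histone genes had 0.070 and 0.080 over 30 rows, and 0.043 and 0.018 corrected, against 0.17 in each replicate at 20 min. Rows near Ty genes had 0.028 and 0.11, and −0.003 and 0.019 corrected. No window of any list passed as deposited. After correction the calls were 7 higher and 5 lower of 325 windows near tRNA genes, 0 and 4 of 194 near ribosomal protein genes, 2 and 2 of 80 near Ty genes and none of 4 near histone genes. In either direction that was 3.69% of the windows near tRNA genes, 2.06% of those near ribosomal protein genes and 5.0% of those near Ty genes, against 3.95% of all windows.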

How the data were processed

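The deposited table gives, for rows of 1000 bp, 8 log2 ratio columns and 8 smoothed columns in an unstated score, which were not used. Reads were processed with CASAVA 1.8.2 and Bowtie on sacCer3, per the submitters' processing notes. The log2 base, the pseudocount of 1 RPM and the 0-min denominator of the deposited ratios were settled from their values, since the headers do not name them. Within a strain and replicate, both later times are divided by 1 common 0-min library.

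Columns were centred on the nuclear median and averaged over 10-kb windows and chromosomes. limma 3.58.1 (R 4.3.3) fitted the 8 columns in 4 groups, both strains sharing the spread, with Benjamini-Hochberg adjustment at 0.05. That fit treats the columns as independent, so its p-values do not allow for the 0-min library that the 20- and 40-min columns share. The 40-min minus 20-min differences were fitted within replicates. The correction for row depth was a lowess curve of span 0.3 (statsmodels 0.14.6). Named windows are the 10 highest and 10 lowest past the threshold, of equal sign in both replicates, at most 1 per 30 kb, without the outermost 10 kb and the ribosomal DNA, each named by the gene nearest its centre, plus TRP1, HHF1, HTB1, PES4 and VMS1. As none passed as deposited, the rule was applied to the corrected windows, and the highest as deposited are given beside them. Centromeres were placed between the innermost genes of the arms in RefSeq's R64 annotation. Lists and members were chosen with earlier results of these data known. Replication origins were not used here.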

Additional observations from a re-analysis of the deposited data

Results flagged for a closer look

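The windows of CDC15 and BDH1 on chromosome I were singled out because the strains differed there at 40 min. The CDC15 window had 0.097 and 0.091 in wild type and 0.62 and 0.63 in eco1, a difference of 0.53 on the log2 scale (limma adjusted p = 5.7e-05). The BDH1 window had 0.077 and 0.067 in wild type and 0.50 and 0.54 in eco1, a difference of 0.44 (limma adjusted p = 9.5e-05). The difference was not local to them. Of the 24 windows of chromosome I, 20 were higher in eco1 by the same limma test, and the median difference over the chromosome was 0.54. On chromosome IX, 13 of 44 were higher in eco1. Each of the remaining chromosomes had 0 to 2 windows called in either direction, such as 1 of 153 on chromosome IV and 0 of 109 on chromosome VII.

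Mitochondrial rows, outside the nuclear profile, were singled out as a signal that the comparisons do not use. Their RPM (reads scaled to library size) at 40 min were 1.05 times those at 0 min in replicate 1 and 1.45 times in replicate 2. The mitochondrial share of mapped reads went from 2.46% to 2.59% in replicate 1 and from 2.38% to 3.46% in replicate 2.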

How the results depend on the processing

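Window calls depended on the settings more than chromosome calls did. At 40 against 0 min, where none passed as deposited (278 at an unadjusted p under 0.05), there were 19 higher and 28 lower after correction for row depth, 156 and 107 with columns of equal SD and 203 and 118 with a replicate block within wild type. Leaving out a replicate gave 0 to 37 higher and 0 to 19 lower, and 0 to 35 and 0 to 41 after correction. With the replicate block in the fit of all groups there were 0 windows, 7 higher chromosomes and 1 lower. The labels say nothing of what a number shares. Replicate differences in wild type correlated at 0.0093 between 0 and 40 min, 0.15 between 0 and 20 min and 0.38 between 20 and 40 min. At 40 against 20 min the windows were 42 and 69 corrected, 51 and 61 at equal SD, 3 lower with no replicate block and 4 lower in rows of at least 200 reads. Leave-outs gave 0 to 19 higher and 1 to 33 lower, and 0 to 75 and 17 to 110 corrected. Where a 40-min replicate is left out, the other is assumed to vary like the other groups.

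Lower chromosomes at 40 min were 2 with the MAD filter, equal SD, no centring, rows of at least 200 reads, wild-type columns only and no rows near Ty genes, 3 corrected, with mean centring and with the replicate block within wild type, and 0 to 2 without a replicate. From 20 to 40 min, higher chromosomes were 1 with the MAD filter, corrected or without centring, and 2 at equal SD. Lower ones were 1, 3 and 2 with the MAD filter, corrected and at equal SD. Leave-outs gave 0 to 1 in each direction, and 0 to 1 higher and 0 to 3 lower corrected.

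List means became 0.059 at centromeres, 0.030 at histone, 0.0026 at ribosomal protein, 0.022 at tRNA and 0.0075 at Ty genes after correction. Within 1 kb they were 0.11, 0.11, 0.054 and 0.084 for the first 4, and histone genes had 0.062 with the MAD filter and 0.053 within 5 kb. That filter gave 0.084 in the outermost 5 kb and −0.0030 from 50 kb. The replicate correlation was 0.56 with the MAD filter, 0.59 corrected, 0.64 in rows of at least 200 reads and 0.59 without the ribosomal DNA and ends. Ranked by eco1 at 20 min, among windows outside chromosomes I, III, V and IX, the lowest 10% had 0.048 and the highest 0.0034. That order was opposite to that of the wild-type ranking, which used all 16 chromosomes. The eco1 20-min means rose with row depth, unlike the wild-type ones. They were −0.11 and −0.10 in replicates 1 and 2 for the 10% of rows with the fewest reads. For the 10% with the most reads they were 0.13 and 0.12. After correction the lowest and highest 10% of windows in the eco1 ranking had 0.00094 and 0.0089 as means of the replicates. That opposite order was gone in replicate 1, with −0.0092 and 0.017, and remained in replicate 2, with 0.011 and 0.0010.

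Signs turned for chromosome II (−0.0011 corrected, −0.00068 mean-centred), VII (−0.0032, −0.0012) and XV (0.016 and −0.00068 without wild-type 40-min replicate 1 and 2). HTB1 had −0.032 corrected and −0.0020 and 0.028 without 40-min replicate 1 and 2. TRP1 had 0.0010 with the MAD filter, 0.023 with chromosome centring, 0.031 corrected, 0.0037 with no replicate block, 9.3e-05 in rows of at least 200 reads, 0.0015 without ends, 0.00049 without Ty rows and 0.0046 and −0.0057 without 40-min replicate 1 and 2. YDR210W-B had −0.15 with the MAD filter, −0.14 corrected, −0.0012 at equal SD and uncentred, −0.0028 mean-centred, −0.031 in rows of at least 200 reads, −0.081 without Ty rows and 0.033 and −0.025 without 40-min replicate 1 and 2. The cause was not tested. The outermost 5 kb has few reads per row, which widens the counting error there.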
